A study of Arabidopsis thaliana with 30 samples.

Results

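The late-only genes are 64 of the 27655 genes in the count table: genes that antimycin A raised after 24 h but not after 3 h, in ein2-5 and in wild-type Arabidopsis thaliana alike. They were chosen on measured values. For each genotype and time, d is the log2 ratio of the mean CPM with antimycin A to the mean CPM in medium alone, where CPM is a count per 1e6 counts of its library, with a pseudocount of 1 added to both means. A gene was taken when it had a mean of at least 5 CPM in both 24 h antimycin A groups, a d of at least 0.7 at 24 h in both genotypes and a d below 0.3 at 3 h in both. Of the 15005 genes with that level, 203 reached the 24 h limit in both genotypes. Of these, 139 had a d of 0.3 or more at 3 h in 1 or both genotypes, and the other 64 are described here.

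The study profiled whole seedlings of ein2-5, a line without a working EIN2 protein, and of the wild type Col-0 (WT). Seedlings grown on agar plates of Murashige and Skoog (MS) medium with sucrose were covered, when 12 days old, with liquid MS medium containing 20 µM antimycin A (AA) or with liquid MS medium alone, and further seedlings were left untreated. The 10 groups of 3 libraries were ein2-5 with AA for 3 h or 24 h, ein2-5 with MS for 3 h or 24 h, ein2-5 untreated, WT with AA for 3 h or 24 h, WT with MS for 3 h or 24 h, and WT untreated. Poly(A) RNA was sequenced, and the deposited counts summed to between 21.2 and 32.6 M per library, with a median of 24.3 M (1 M is 1e6 counts). EIN2 itself averaged 38.6 to 46.8 CPM in the ein2-5 groups and 104 to 114 CPM in the WT groups. The labels do not say whether the 3 replicates of a group were separate cultures, so p-values measure the spread between these samples, which may be technical. Time is also the batch in the labels, and AA was therefore set against MS of the same time. In every comparison with untreated seedlings the treatment, the time and the batch cannot be told apart. The library of ein2-5 MS 3 h replicate 3 stood apart from its group: its chi-square per degree of freedom was 35.9 against replicate 1 and 35.2 against replicate 2, and at most 21.2 in every other pair of replicates.

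Antimycin A blocks electron flow through complex III of the mitochondrial respiratory chain. Plants answer a blocked chain with a set of nuclear genes for alternative respiration and detoxification, the mitochondrial dysfunction genes. Seedlings short of iron turn on a separate cascade, in which bHLH transcription factors and small IMA peptides act upstream of iron reduction, chelation and transport. Flavonoids and anthocyanins are phenylpropanoid pigments, made in a chain of enzymatic steps from chalcone synthase onward and controlled by MYB and bHLH factors. EIN2 relays the ethylene signal from the endoplasmic reticulum membrane to the nucleus.

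The late-only genes held 9 genes of iron handling, 9 of flavonoid and anthocyanin synthesis, 2 of the mitochondrial chaperone and protease list and 1 immunity gene, out of 25 gene lists with 317 genes. The other 43 were in no list. None of the 15 mitochondrial dysfunction genes was among them, and 13 of those 15 missed only the 3 h limit: their list had a median d of 3.00 in ein2-5 and 3.05 in WT at 3 h, and of 1.85 in ein2-5 and 2.01 in WT at 24 h. The late-only genes had a median d at 24 h of 0.99 in ein2-5 and 1.05 in WT, and at 3 h of -0.03 in ein2-5 and -0.01 in WT. Over all 15005 genes with the same level, the median d at 24 h was 0.08 in both genotypes. In 24 late-only genes d at 24 h was at least 1 in both genotypes, and in 7 it was at least 2: BHLH100, BHLH38, AT5G38910, IMA3, ORG1, AT2G14247 and GLP4. d at 24 h was higher in ein2-5 than in WT for 27 of the 64.

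These values chose the genes and support nothing by themselves. The 3 AA libraries lay above the 3 MS libraries at 24 h for all 64 genes in both genotypes, against 24.8% of the 15005 genes in ein2-5 and 29.0% in WT. By edgeR's quasi-likelihood test with Benjamini-Hochberg adjustment over 21256 genes, 63 of the 64 were higher with AA at 24 h in ein2-5, where 5.90% of all genes tested were higher and 7.95% lower, and all 64 in WT, where 6.48% were higher and 6.50% lower. At 3 h, 1 was higher and 2 were lower in ein2-5 (6.62% higher and 6.22% lower over all genes), and 0 were higher and 7 lower in WT (6.20% and 3.80%). At an unadjusted p under 0.05, 1 was higher and 13 were lower in WT at 3 h, and DESeq2 called 0 higher and 7 lower. The WT count at 3 h was 2 without AA replicate 2 and 1 without MS replicate 1. The test of whether the AA response at 24 h differed between genotypes called 0 of the 64 and 0.296% of all genes; at an unadjusted p under 0.05 it counted 8. DESeq2 called 1, as did upper-quartile scaling, no filter, a fit of only the libraries compared and the fit without ein2-5 AA 24 h replicate 1. In bulk RNA, fewer cells of a type and less RNA per cell cannot be told apart. The summed level of 9 root and root hair markers ranged from 35.4 to 40.3 CPM in ein2-5 AA 24 h libraries and from 60.6 to 84.9 CPM in ein2-5 MS 24 h libraries. In WT it ranged from 49.4 to 52.8 CPM with AA and from 106 to 108 CPM with MS at 24 h. No marker of that list was at 0, and its part in the levels below was not tested.

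**Figure D1:**
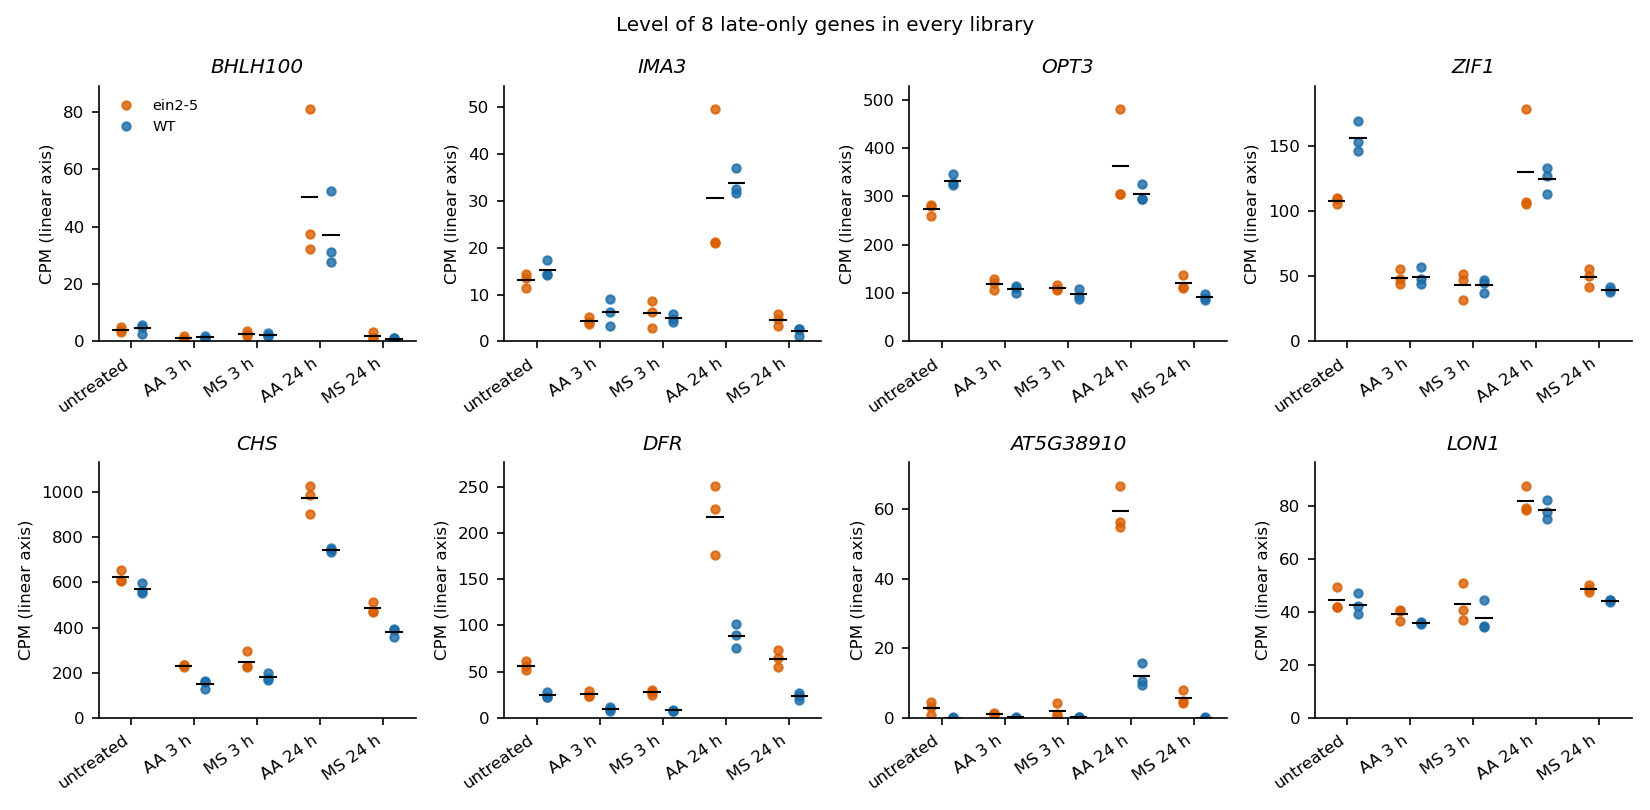
Level in CPM (vertical axes, linear) of 8 late-only genes in each of the 30 libraries, by condition, with ein2-5 in orange and WT in blue; points are libraries and black lines are group means. In all 8 genes the AA 24 h libraries are above the MS 24 h libraries, while the AA 3 h and MS 3 h libraries overlap or lie close together.

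The iron regulators BHLH100, BHLH38 and IMA3 were 3 of the 7 members with a d of at least 2 in both genotypes. BHLH100 and BHLH38 encode bHLH factors of subgroup Ib, which act with FIT in the iron deficiency response, and IMA3 encodes a small peptide that promotes that response. BHLH100 (chr2:17198037-17199454, TAIR10.1) had 80.9, 32.3 and 37.4 CPM in the ein2-5 AA 24 h libraries, against 3.37, 1.02 and 0.879 CPM in the ein2-5 MS 24 h libraries. In WT it had 52.3, 31 and 27.8 CPM with AA and 0.473, 1.1 and 1.09 CPM with MS at 24 h. At 3 h it was below 2 CPM in all 6 AA libraries of both genotypes, and no higher than 3.63 CPM in the 6 MS libraries. The groups were far apart at 24 h and overlapped at 3 h, and d at 24 h was 4.22 in ein2-5 and 4.33 in WT.

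BHLH38 (chr3:21084035-21085245) behaved alike, with 51.3, 18.0 and 18.0 CPM in ein2-5 AA 24 h libraries, against 2.34, 0.839 and 0.711 CPM in ein2-5 MS 24 h libraries. WT libraries had 30.6, 17.2 and 17.1 CPM with AA and 0.43, 0.617 and 0.544 CPM with MS. IMA3 (chr2:13107583-13110480) had 49.6, 21.3 and 21.0 CPM in ein2-5 AA 24 h libraries and 5.83, 4.85 and 3.22 CPM in ein2-5 MS 24 h libraries. Replicate 1 of ein2-5 AA 24 h was the highest of its group for all 3 regulators. In WT, IMA3 had 31.7, 37.0 and 32.5 CPM with AA and 1.25, 2.56 and 2.72 CPM with MS. Reads were counted without strand, and BHLH38 and IMA3 each overlap genes on the other strand, so their counts are uncertain to that extent.

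A further 6 late-only genes were in the iron lists, most of them acting in transport, chelation or reduction. OPT3 (chr4:9247302-9250343), a phloem transporter that carries iron towards young tissue and signals shoot iron status, had 480, 305 and 304 CPM in ein2-5 AA 24 h libraries, against 113, 137 and 110 CPM in ein2-5 MS 24 h libraries. In WT it had 295, 325 and 295 CPM with AA and 90.4, 98.1 and 84.6 CPM with MS. ORG1 (chr5:21688763-21692480), which takes its name from its response to the factor OBP3, had 257, 152 and 150 CPM in ein2-5 AA 24 h libraries and 50.6, 31.6 and 33.8 CPM in ein2-5 MS 24 h libraries. ZIF1, a vacuolar carrier of the metal chelator nicotianamine, averaged 130 CPM with AA and 49.1 CPM with MS in ein2-5, and 124 CPM with AA and 39.7 CPM with MS in WT. NAS4, an enzyme that makes nicotianamine, averaged 37.6 CPM with AA and 16.5 CPM with MS in ein2-5, and 36.2 CPM with AA and 11.8 CPM with MS in WT. FRO3, a mitochondrial ferric reductase, had a d of 1.25 in ein2-5 and 1.44 in WT, and NRAMP4, which releases iron from vacuoles, a d of 1.07 in ein2-5 and 0.98 in WT.

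Other genes of the iron lists were split. By edgeR's test over all genes, 7 of the 16 regulators outside the late-only genes rose with AA at 24 h in ein2-5. In WT 8 rose, and 0 fell in either genotype. Among all genes tested, 5.90% rose and 7.95% fell in ein2-5, and 6.48% rose and 6.50% fell in WT. BHLH39 and BHLH101, the other factors of subgroup Ib, were left out because of the 3 h limit. So were IMA1, IMA2, PYE and BTS. That limit leaves out a gene with a d of 0.3 or more at 3 h in 1 genotype alone. By edgeR's test at 3 h, 1 of the 16 regulators outside rose and 4 fell in ein2-5. In WT 0 rose and 3 fell. Among all genes tested at 3 h, 6.62% rose and 6.22% fell in ein2-5, and 6.20% rose and 3.80% fell in WT. Of all 19 regulators, 9 reached the 24 h limit in both genotypes, and the 3 h limit left out 6 of these 9. BHLH39 rose at 24 h with a log2 fold change of 3.58 ± 0.30 (SE) in ein2-5 and 4.10 ± 0.31 in WT. Among the 15 uptake and transport genes outside, 2 rose and 6 fell at 3 h in ein2-5, and 2 rose and 5 fell in WT. At 24 h, 3 rose and 1 fell in each genotype. FIT, the regulator of root uptake, had a log2 fold change of -0.35 ± 0.15 in ein2-5 (adjusted p = 0.111, edgeR) and -0.23 ± 0.15 in WT (adjusted p = 0.348). IRT1, the root iron transporter, had a log2 fold change of -0.17 ± 0.20 in ein2-5 (adjusted p = 0.663) and 0.49 ± 0.21 in WT (adjusted p = 0.126). FRO2, the root ferric reductase, fell in ein2-5, with a log2 fold change of -0.78 ± 0.24 (adjusted p = 0.0277, edgeR), and had -0.14 ± 0.25 in WT (adjusted p = 0.772). The difference between the genotypes in that response was -0.63 ± 0.34 (adjusted p = 0.578, edgeR) and did not pass.

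The promoters of 3 iron members are shown because they hold a G-box, CACGTG, a palindrome that bHLH and bZIP factors bind. It was in 4 of the 9 iron members (44.4%), in 5 of all 40 genes of the iron lists (12.5%), those 4 included, and in 7.68% of all 27444 promoter windows. The window searched runs from 250 bases before to 50 bases after the start of the gene in the RefSeq annotation of TAIR10.1. The 200 bases before the start follow for BHLH100 at chr2:17199455-17199654 (minus strand), BHLH38 at chr3:21085246-21085445 (minus strand) and OPT3 at chr4:9250344-9250543 (minus strand), each 5′ to 3′ on the strand of the gene, with the G-box in capitals.
BHLH100: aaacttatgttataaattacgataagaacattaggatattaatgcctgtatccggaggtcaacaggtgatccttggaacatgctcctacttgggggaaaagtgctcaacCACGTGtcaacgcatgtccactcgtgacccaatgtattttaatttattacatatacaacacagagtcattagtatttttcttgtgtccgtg
BHLH38: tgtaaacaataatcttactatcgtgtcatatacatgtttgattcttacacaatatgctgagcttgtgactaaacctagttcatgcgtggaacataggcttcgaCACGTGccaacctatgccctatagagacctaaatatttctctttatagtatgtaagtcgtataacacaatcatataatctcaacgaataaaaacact
OPT3: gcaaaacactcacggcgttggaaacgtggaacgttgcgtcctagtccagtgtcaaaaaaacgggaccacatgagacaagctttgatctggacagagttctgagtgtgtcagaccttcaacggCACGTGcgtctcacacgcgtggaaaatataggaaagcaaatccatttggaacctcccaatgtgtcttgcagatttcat
The first base of the G-box is at position -91 from the start in BHLH100, -97 in BHLH38 and -78 in OPT3. The 4th match, in FRO3, is at position -3. A match is a description of the letters, and binding was not measured.

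The flavonoid members cover the pathway from its first step to anthocyanin modification. They are CHS, CHI, F3H, F3'H, DFR and LDOX (chalcone synthase, chalcone isomerase, flavanone 3-hydroxylase, flavonoid 3'-hydroxylase, dihydroflavonol reductase and leucoanthocyanidin dioxygenase), the glycosyltransferase UF3GT, the glutathione transferase TT19, which is needed to bring anthocyanins into the vacuole, and the MYB regulator PAP1. CHS (chr5:4488476-4490264) had 1028, 987 and 903 CPM in ein2-5 AA 24 h libraries, against 513, 470 and 474 CPM in ein2-5 MS 24 h libraries. WT seedlings had 752, 736 and 743 CPM with AA and 388, 393 and 358 CPM with MS. At 3 h CHS had 234, 227 and 233 CPM with AA and 224, 230 and 295 CPM with MS in ein2-5, so those libraries overlapped. In WT at 3 h it had 161, 127 and 164 CPM with AA and 199, 176 and 169 CPM with MS, so all 3 AA libraries lay below the MS libraries. Of the 7 late-only genes lower with AA in WT at 3 h by edgeR's test, 4 were flavonoid members, namely CHS, F3'H, UF3GT and TT19, where 3.80% of all genes tested were lower. That count of 4 was 1 without WT AA 3 h replicate 2, 2 without WT AA 3 h replicate 3 and 0 without WT MS 3 h replicate 1, and 4 by DESeq2.

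DFR (chr5:17164093-17166032), which makes leucoanthocyanidins, had 251, 226 and 176 CPM in ein2-5 AA 24 h libraries and 73.0, 64.5 and 54.7 CPM in ein2-5 MS 24 h libraries. In WT it had 75.3, 89.7 and 101 CPM with AA and 19.8, 27.1 and 23.7 CPM with MS. LDOX averaged 144 CPM with AA and 47.9 CPM with MS in ein2-5 at 24 h, and 71.1 CPM with AA and 26.0 CPM with MS in WT. PAP1 was low throughout, at 13.2, 7.94 and 6.57 CPM in ein2-5 AA 24 h libraries and 3.12, 2.12 and 1.63 CPM in ein2-5 MS 24 h libraries. The other 5 list genes, FLS1, PAP2, TT8, MYB12 and 5MAT, all rose at 24 h in both genotypes by edgeR's test with Benjamini-Hochberg adjustment, so all 14 list genes did. That count includes the 9 that the rule chose, and PAP2 passed narrowly in ein2-5 (adjusted p = 0.049, edgeR). The share that rose among all genes tested was 5.90% in ein2-5 and 6.48% in WT. Outside the list, CHIL (a chalcone isomerase-like protein that aids chalcone synthase), FLS5 (a flavonol synthase relative), UGT84A1 (a phenylpropanoid glucosyltransferase) and AT1G03940 (an acyltransferase of the family that decorates anthocyanins) were also late-only.

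G-boxes lay in 5 of the 9 flavonoid list members (55.6%) and in 7 of all 14 genes of that list (50%). The 200 bases before the start of DFR at chr5:17166033-17166232 (minus strand) and of UF3GT at chr5:21938397-21938596 (minus strand), and the 250 bases before that of CHS at chr5:4488226-4488475 (plus strand), are given in the same way, to show where the match lies in each.
DFR: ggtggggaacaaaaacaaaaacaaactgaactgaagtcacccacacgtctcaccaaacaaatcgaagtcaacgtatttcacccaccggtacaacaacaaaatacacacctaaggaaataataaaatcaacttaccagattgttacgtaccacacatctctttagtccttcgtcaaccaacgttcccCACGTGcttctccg
UF3GT: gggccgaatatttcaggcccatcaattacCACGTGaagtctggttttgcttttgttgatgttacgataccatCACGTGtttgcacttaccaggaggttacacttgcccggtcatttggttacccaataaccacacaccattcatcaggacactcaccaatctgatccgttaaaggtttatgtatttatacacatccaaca
CHS: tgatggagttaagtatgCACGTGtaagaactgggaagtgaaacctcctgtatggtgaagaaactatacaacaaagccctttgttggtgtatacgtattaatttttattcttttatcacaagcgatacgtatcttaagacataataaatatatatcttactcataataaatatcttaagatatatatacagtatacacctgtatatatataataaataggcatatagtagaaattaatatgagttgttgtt
DFR holds a match at position -14 and another at 10, after the start. UF3GT holds matches at -171 and -128, and CHS holds one at -233.

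Across the late-only genes 16 of 64 promoter windows (25%) held a G-box, against 7.68% of all windows. Without the iron and flavonoid list members it was 7 of 46 (15.2%). The 84 genes whose d was at least 0.7 at both 3 h and 24 h in both genotypes differed in their matches: 10.7% held a G-box, and 32.1% held the mitochondrial dysfunction motif, read on both strands. That motif was in 1 of the 64 late-only windows (1.56%) and in 2.14% of all windows. The single match, in AT1G24580, overlaps a G-box. The W-box, TTGACC or TTGACT on either strand, was in 31.2% of late-only windows, in 57.1% of windows of the 84 genes and in 32.4% of all. Site II (TGGGCC or TGGGCT) was in 15.6% of late-only windows and 21.7% of all, and the telobox AAACCCTAA in 3.12% of late-only windows and 3.6% of all. These shares are counts of letters in the windows and carry no test.

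**Figure D2:**
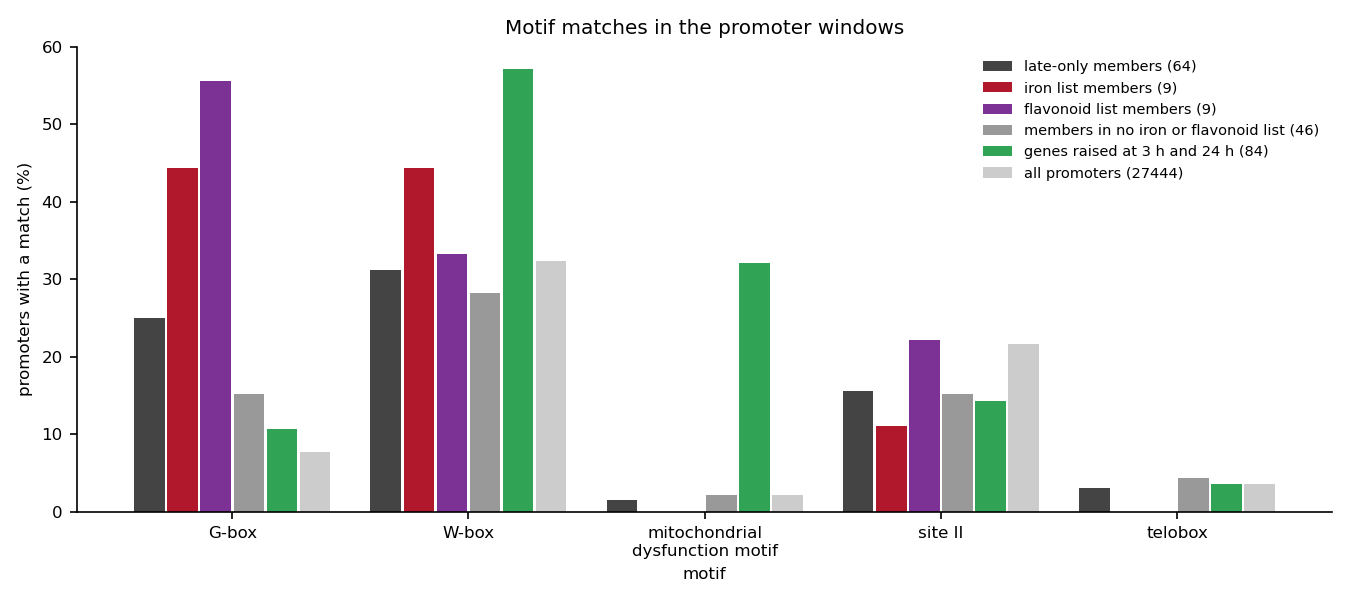
Share of promoter windows, in percent (vertical axis, from 0), with at least 1 match to each of 5 motifs (horizontal axis), for the 64 late-only genes, their iron and flavonoid list members, the other 46, the 84 genes raised at both times and all 27444 windows. The G-box bars are highest for the iron and flavonoid members, and the mitochondrial dysfunction motif bar is highest, at 32.1%, for the genes raised at both times.

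The mitochondrial chaperone, protease and import list held 2 late-only genes among its 24, LON1 and MTHSC70-2. LON1 (chr5:9450952-9457000), a protease of the mitochondrial matrix, had 79.2, 78.5 and 87.7 CPM in ein2-5 AA 24 h libraries, against 50.3, 47.5 and 48.8 CPM in ein2-5 MS 24 h libraries. The WT values were 82.4, 75.2 and 77.9 CPM with AA and 43.6, 44.6 and 44.6 CPM with MS. These libraries lay close together within a group, and the levels of both genotypes were much alike. MTHSC70-2, a matrix chaperone of the Hsp70 family, had a d of 0.81 in ein2-5 and 0.77 in WT, but 20 of its 30 deposited values were not whole numbers, since read pairs that map to several places were shared out. Outside the list, PHB1, a prohibitin of the inner membrane, averaged 55.9 CPM with AA and 28.9 CPM with MS in ein2-5, and 55.8 CPM with AA and 28.5 CPM with MS in WT. AT5G15700 (an organellar RNA polymerase), AT5G14580 (a polyribonucleotide nucleotidyltransferase) and AT1G23100 (a GroES-like protein) had a d between 0.71 and 0.78 in both genotypes. PHB1, AT5G15700 and AT1G23100 were picked after their values were seen, and no list tells how common such genes are here. By edgeR's test 11 of the other 22 genes of the chaperone, protease and import list rose and 0 fell at 24 h in each genotype. At 3 h 5 rose in ein2-5 and 6 in WT. Among all genes tested, 5.90% rose in ein2-5 and 6.48% in WT at 24 h. The shares at 3 h were 6.62% in ein2-5 and 6.20% in WT.

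The remaining late-only genes had varied roles. AT5G38910 (chr5:15578749-15579733), a germin-like protein, had 54.9, 66.7 and 56.3 CPM in ein2-5 AA 24 h libraries and 7.88, 5.0 and 4.31 CPM in ein2-5 MS 24 h libraries. In WT it had 9.57, 10.7 and 15.8 CPM with AA and 0.258, 0.0882 and 0 CPM with MS, so it was almost unread without AA. GLP4, a further germin-like protein, had 35.3, 40.0 and 35.1 CPM with AA and 9.48, 7.04 and 7.99 CPM with MS in ein2-5 at 24 h. APL3, a large subunit of the enzyme that makes ADP-glucose for starch, averaged 61.7 CPM with AA and 16.7 CPM with MS in ein2-5, and 38.5 CPM with AA and 14.3 CPM with MS in WT. KAT5, a thiolase of fatty acid breakdown, ASP2, a cytosolic aspartate aminotransferase, CORI3, a tyrosine transaminase family protein, and FMO1, which makes N-hydroxypipecolic acid in systemic immunity, were also members. By RefSeq product names, 8 of the 64 (12.5%) were chalcone or flavonoid enzymes or regulators, against 0.107% of 14988 annotated genes at that level, and 2 (3.12%) were protein kinases, against 5.88%. The 64 genes lay on all 5 chromosomes, with 21 on chromosome 5, and none was next to another.

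Untreated seedlings give a level of each gene without liquid medium. The rule did not use them, though both the AA and MS groups that chose the genes enter here, so the values are a description. All 3 AA 24 h libraries lay above all 3 untreated libraries for 53 of the 64 genes in ein2-5, where 29.0% of the 15005 genes did, and for 56 in WT, where 29.3% did. All 3 MS 24 h libraries lay below the untreated ones for 25 genes in ein2-5 (18.7% over the 15005) and 26 in WT (23.9%). With a limit of 0.7 on the same log2 scale as d, in both genotypes at once, 36 of the 64 were higher with AA at 24 h than untreated (3.17% over the 15005). Likewise 13 were lower with MS at 24 h than untreated (0.760%), 5 of them being among the 36 (0.0600%), and 20 reached neither limit.

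The iron members lay lower in MS than in untreated seedlings. Their level in MS at 24 h was below that of untreated seedlings, with all 3 libraries apart in 7 of 9 genes in ein2-5 and 9 of 9 in WT, and the median log2 ratio of MS 24 h to untreated was -0.87 in ein2-5 and -1.55 in WT. Over the other 46 members, neither iron nor flavonoid, that median was 0.01 in ein2-5 and -0.02 in WT. OPT3 had 279, 260 and 282 CPM in untreated ein2-5 and 327, 323 and 347 CPM in untreated WT, so its AA 24 h level of 295 to 325 CPM in WT was near the untreated one. ZIF1 had 113 to 133 CPM with AA at 24 h in WT, against 146 to 169 CPM in untreated WT seedlings. The 3 regulators and ORG1, with the unnamed gene AT2G14247, were the 5 that reached both limits on group means given above. Those limits asked for a higher mean with AA and a lower mean with MS at 24 h than untreated, in both genotypes. Single libraries could still overlap, as those of BHLH100 did between MS 24 h and untreated in ein2-5. BHLH100 averaged 50.2 CPM with AA and 1.76 CPM with MS at 24 h in ein2-5, against 4.04 CPM untreated. In WT it averaged 37.0 CPM with AA and 0.888 CPM with MS, against 4.54 CPM untreated.

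By their median, the flavonoid members lay below the untreated level at 3 h with AA and with MS. Their median log2 ratio to untreated at 3 h was -1.06 with AA and -0.99 with MS in ein2-5, and -1.26 with AA and -1.19 with MS in WT. At 24 h it was 1.12 with AA and -0.35 with MS in ein2-5, and 1.03 with AA and -0.15 with MS in WT. CHS averaged 625 CPM in untreated ein2-5 and 572 CPM in untreated WT, between its 24 h levels with AA and with MS. F3H stayed below: it averaged 143 CPM with AA and 77.6 CPM with MS at 24 h in WT, against 242 CPM untreated. LON1 averaged 44.4 CPM in untreated ein2-5 and 42.8 CPM in untreated WT, close to its MS levels at 24 h.

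**Figure D3:**
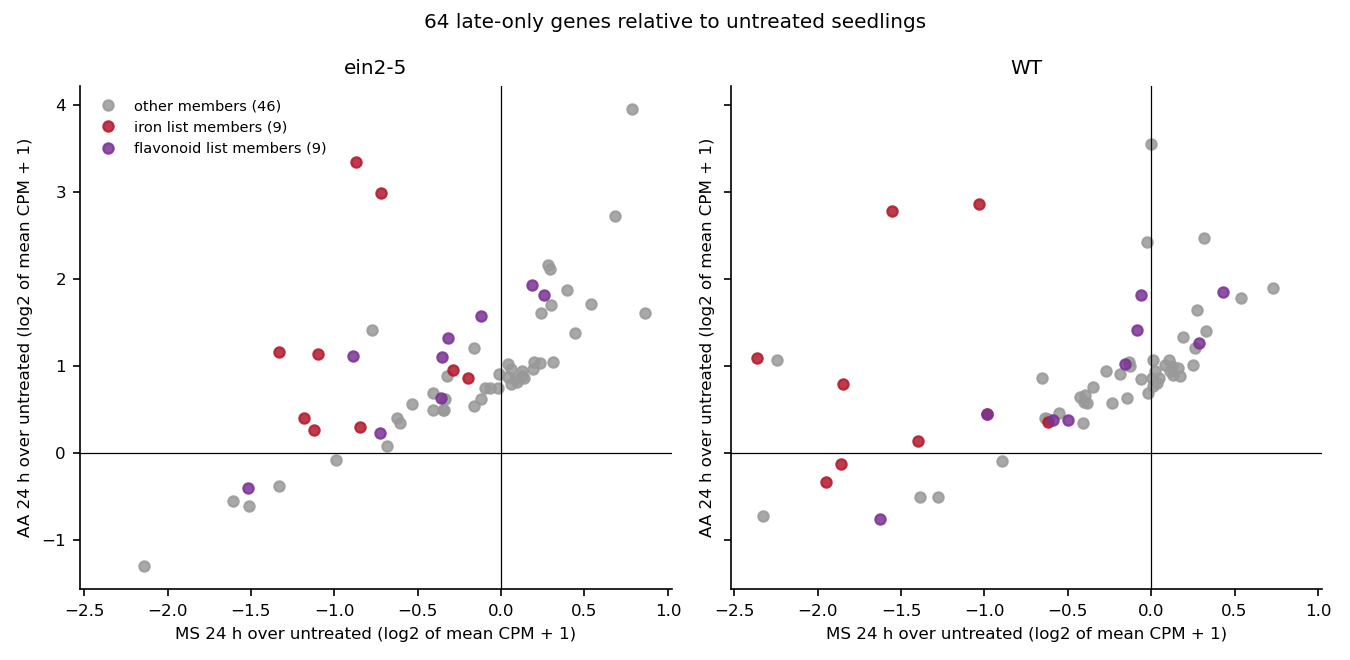
Each point is 1 of the 64 late-only genes, with the log2 ratio of mean CPM plus 1 in MS 24 h to untreated seedlings on the horizontal axis and that of AA 24 h to untreated on the vertical axis, in ein2-5 (left) and WT (right). The iron members (red) lie left of the vertical line in both genotypes, while most of the other genes (grey) lie near it.

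The rule set no limit on the difference between genotypes within a condition, but the AA and MS libraries of both genotypes are the ones that chose the genes. The untreated libraries alone were outside the rule, and the counts of the other 4 conditions are a description beside those over all genes. More late-only genes were higher than lower in ein2-5 in each of the 5 conditions, by edgeR's quasi-likelihood test with Benjamini-Hochberg adjustment over all genes. In untreated seedlings 13 were higher and 4 lower, where 1.51% of all genes tested were higher and 2.82% lower, 4.33% in all. With AA at 3 h, 20 were higher and 1 lower (4.86% and 2.95% over all genes, 7.82% in all). With MS at 3 h, 16 were higher and 3 lower (5.87% and 4.55%, 10.4% in all). Without replicate 3 of ein2-5 MS 3 h, 15 in place of 19 were called in either direction, and without replicate 3 of WT MS 3 h, 12. In untreated seedlings 17 were called in either direction, but 11 without WT replicate 1, 11 without WT replicate 3 and 10 without ein2-5 replicate 2. With AA at 24 h, 15 were higher and 2 lower (5.50% and 4.41%, 9.91% in all), and with MS at 24 h, 14 were higher and 2 lower (6.74% and 4.65%, 11.4% in all). The median log2 fold change of the 64, ein2-5 over WT, was 0.11 untreated, 0.34 with AA and 0.24 with MS at 3 h, and 0.13 with AA and 0.18 with MS at 24 h, against -0.01, 0.00, 0.02, -0.01 and 0.00 over all genes tested, in the same order of conditions. The 9 root and root hair markers summed to 80.2 to 88.4 CPM in untreated ein2-5 and 100 to 124 CPM in untreated WT. They were lower in ein2-5 with AA and with MS at 24 h too, by the ranges given above. With AA and with MS at 3 h the ranges of the genotypes overlapped. The part of these markers in the differences between genotypes was not tested.

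The flavonoid members made up part of these calls. The 46 members in neither the iron nor the flavonoid lists made up another part, counted further below. Of the 9 flavonoid members, 5 were higher in ein2-5 untreated, 9 with AA and 6 with MS at 3 h. At 24 h 8 were higher with AA and 6 with MS, and none was lower in any condition. Over all genes tested, 1.51% were higher untreated, 4.86% with AA and 5.87% with MS at 3 h. At 24 h the shares were 5.50% with AA and 6.74% with MS. Leaving out single libraries gave 4 to 6 members untreated, 9 with AA and 5 to 7 with MS at 3 h. At 24 h it gave 7 to 9 with AA and 4 to 6 with MS. Of all 14 genes of the list, 6 were higher untreated, 12 with AA and 7 with MS at 3 h, and 9 with AA and 6 with MS at 24 h. The single list gene called lower was PAP2, with AA at 24 h, and leaving out some single libraries took that call away. DFR had 55.8, 51.3 and 61.4 CPM in untreated ein2-5 seedlings, against 28.0, 23.0 and 22.7 CPM in untreated WT seedlings. The libraries did not overlap, and the log2 fold change was 1.16 ± 0.14 (SE, n = 3 each, adjusted p = 2.32e-06, edgeR). DFR was higher in ein2-5 in the other 4 conditions too, by 1.27 to 1.72 on the log2 scale. LDOX averaged 40.0 CPM in untreated ein2-5 and 19.0 CPM in untreated WT, a log2 fold change of 1.03 ± 0.18 (adjusted p = 0.000343, edgeR), and TT19 averaged 28.2 CPM in untreated ein2-5 and 14.5 CPM in untreated WT, with 0.92 ± 0.17 (adjusted p = 0.000996). TT19 stood further apart with AA at 3 h, at 15.5, 12.4 and 19.3 CPM in ein2-5 and 4.58, 3.39 and 5.25 CPM in WT.

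CHS, the first step, differed less: its log2 fold change was 0.09 ± 0.08 untreated (adjusted p = 0.674, edgeR) and 0.63 ± 0.08 with AA at 3 h (adjusted p = 3.32e-06). PAP1 passed the test in ein2-5 with AA at 3 h, with 1.36 ± 0.31 (adjusted p = 0.0039, edgeR), while with AA at 24 h (adjusted p = 0.0496) the call was lost in 5 of 6 fits that left out 1 library.

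None of the 9 iron members was called with AA at 3 h, with AA at 24 h or with MS at 24 h. Over all genes tested, 7.82%, 9.91% and 11.4% were called in either direction in these conditions, so 0 of 9 lies near those shares. At an unadjusted p under 0.05, 3 passed with AA at 3 h, 0 with AA at 24 h and 3 with MS at 24 h. DESeq2 called 1 higher and 1 lower with AA at 3 h, 0 with AA at 24 h and 1 higher with MS at 24 h. By edgeR's test NAS4 was higher with MS at 3 h, where 5.87% of all genes tested were higher. FRO3 and ZIF1 were lower in untreated ein2-5, where 2.82% of all genes tested were lower. Each of these 3 calls was lost in some fits that left out 1 library. Other fits gave other counts: DESeq2 called 3 lower untreated and 1 higher with MS at 3 h, and a fit of only the libraries compared called 5 lower untreated, 1 lower with MS at 3 h, 1 higher and 1 lower with AA at 3 h, and 2 higher with MS at 24 h. Untreated, 8 of the 9 had a log2 fold change below 0, with a median of -0.32. With MS at 24 h all 9 were above 0, with a median of 0.37, against 0.46 for the 9 flavonoid members. BHLH38 had 1.24 ± 0.61 there (adjusted p = 0.221, edgeR), IMA3 1.06 ± 0.39 (adjusted p = 0.0811) and BHLH100 0.93 ± 0.57 (adjusted p = 0.345). Without ein2-5 MS 24 h replicate 1, 7 of the 9 were above 0 with MS at 24 h, and without WT MS 24 h replicate 1, 8 were. Leaving out that ein2-5 library gave 0.10 ± 0.63 for BHLH100, 0.545 ± 0.69 for BHLH38 and 0.89 ± 0.44 for IMA3. With AA at 24 h 6 of the 9 were above 0, but 1 of 9 without ein2-5 AA 24 h replicate 1. BHLH100 had a log2 fold change of 0.42 ± 0.32 with AA at 24 h (adjusted p = 0.486, edgeR) and of -0.10 ± 0.34 without that library (adjusted p = 0.92), so at this replicate spread no difference was detectable, which does not show that the genotypes act alike.

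**Figure D4:**
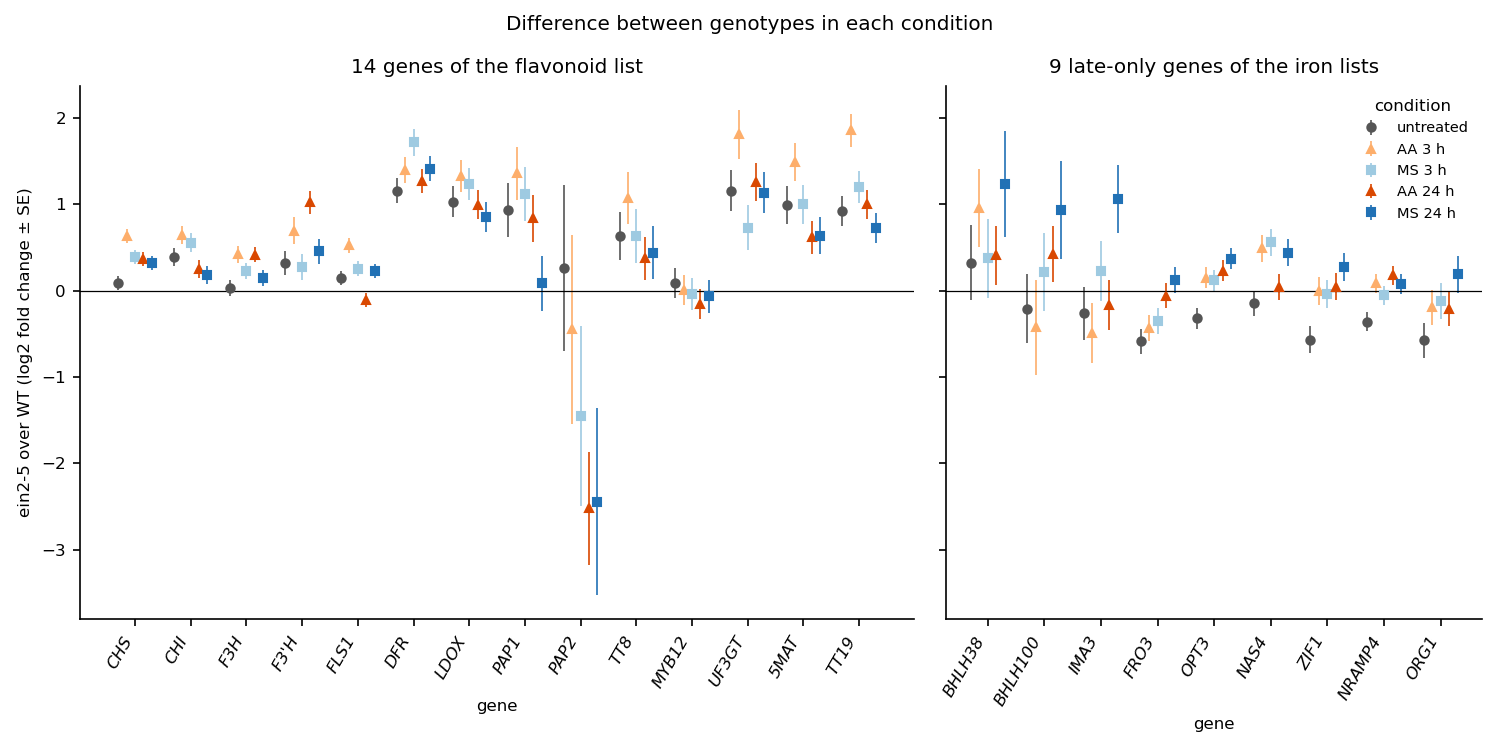
Log2 fold change of ein2-5 over WT with its standard error (vertical axis; edgeR, 3 libraries each) for the 14 flavonoid list genes (left) and the 9 iron members (right) in the 5 conditions. Most flavonoid genes, from CHS onward, lie above 0 in all conditions, while the iron members lie on both sides of 0. The exceptions on the left are FLS1, PAP2 and MYB12, each below 0 in some condition.

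Members outside both groups differed by genotype as well. Of these 46, 8 were higher and 2 lower in untreated ein2-5 by edgeR's test (1.51% and 2.82% over all genes tested). With AA at 3 h 11 were higher and 1 lower, and with MS at 3 h 9 were higher and 3 lower. With AA at 24 h 7 were higher and 2 lower, and with MS at 24 h 8 were higher and 2 lower. The shares over all genes in the other conditions are those given above. AT5G38910 averaged 2.9 CPM in untreated ein2-5 and 0.115 CPM in untreated WT (adjusted p = 0.000154, edgeR), and 59.3 CPM in ein2-5 and 12.0 CPM in WT with AA at 24 h, where the log2 fold change was 2.28 ± 0.35 (adjusted p = 2.68e-05). AT1G24580, a RING-type protein, had 24.0, 21.8 and 24.0 CPM in untreated ein2-5 seedlings and 9.47, 7.17 and 8.59 CPM in untreated WT seedlings, a log2 fold change of 1.43 ± 0.20 (adjusted p = 1.94e-05, edgeR). AT2G15220, a basic secretory protein, was also higher in ein2-5 in all 5 conditions, though 15 of its 30 deposited values were not whole numbers. AT3G54040, a PAR1 family protein, went the other way in every condition, though it overlaps a gene on the other strand. It had 31, 27 and 35 CPM in untreated ein2-5 seedlings and 70.4, 76.6 and 70.4 CPM in untreated WT seedlings. Its log2 fold change there was -1.27 ± 0.10 (adjusted p = 3.05e-10, edgeR), and with AA at 24 h it was -0.77 ± 0.10 (adjusted p = 1.35e-06). TH8, an h-type thioredoxin, was lower in ein2-5 with AA at 24 h, at 5.71, 5.66 and 4.72 CPM in ein2-5, against 10.9, 9.48 and 13.1 CPM in WT.

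The limits of the rule cut through a continuous range. Just inside the 24 h limit lay FLS5 (0.7005), AT5G14580 (0.7134) and EMB2785 (0.7136), and just outside it AT3G03270 (0.6982), HCC1 (0.6946) and AT5G37990 (0.6925), each with the lower of its d values at 24 h. Just inside the 3 h limit lay ASP2 (0.2989), IMA3 (0.2941) and DFR (0.2662), and just outside it LOX1 (0.3012), ICL (0.3059) and AT4G14090 (0.3063), each with the higher of its d values at 3 h. When the 24 AA and MS libraries were left out in turn, between 60 and 74 genes met the rule, and 35 of the 64 met it every time. The 29 that failed it in some case include BHLH38, IMA3, ZIF1, DFR, PAP1, LON1, FMO1, AT1G24580, AT2G15220 and ASP2. BHLH100, ORG1, OPT3 and CHS were among the 35. Counts of 25 members held values that were not whole, most often MTHSC70-2, ASP2 and AT2G42750, and 18 members overlap another annotated gene, which counting without strand does not separate.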

How the data were processed

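Members and gene lists were chosen with earlier results of these data known. The authors deposited a table of expected counts: per the file headers, read pairs were counted with featureCounts 2.0.3 over exons of TAIR10 annotation release 57, without regard to strand, and pairs mapping to several places were shared out as fractions. The submitters' processing notes also name HISAT2, SAMtools, DESeq and DESeq2 and the build TAIR10. Of the deposited values 6.31% were not whole, and all were rounded to whole counts before testing.

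CPM and d were computed from the deposited values. For tests, genes passing filterByExpr with a minimum count of 10 (21256 genes) were scaled by TMM factors of 0.958 to 1.06 and fitted with edgeR 4.0.16 in R 4.3.3, with 1 mean per group over all 30 libraries; the adjusted p threshold was 0.05. The fit was tested on simulated data. Alternatives were DESeq2 1.42.0, RLE and upper-quartile scaling, other filters and limits, fits restricted to the groups of a comparison, a block for replicate number and leaving out single libraries. Genes were named by rule: members among the 15 with the largest lower d at 24 h, in any list, among the 10 with the highest level with AA at 24 h, nearest the limits, of a family described, or among up to 6 a direction with the lowest adjusted p and non-overlapping libraries in a genotype comparison; EIN2 and list genes outside the members that a result turns on were named too. AT1G03940, PHB1, AT5G15700 and AT1G23100 were chosen after their values were seen.

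Same-numbered replicates did not deviate together, so samples were treated as unpaired. Of the loci, 27445 matched RefSeq; names, gene positions and promoter windows come from RefSeq TAIR10.1, while the deposited table holds no coordinates.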

Additional observations from a re-analysis of the deposited data

How the results depend on the processing

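The genotype counts were 17 late-only genes untreated, 21 with AA and 19 with MS at 3 h, and 17 with AA and 16 with MS at 24 h. Leaving out single libraries gave 10 to 16 untreated, 15 to 22 with AA and 12 to 22 with MS at 3 h, and 14 to 21 with AA and 13 to 15 with MS at 24 h. At an adjusted p under 0.01 the count was 10 untreated and 12 with MS at 3 h, and a fit of only the libraries compared gave 12 with MS at 3 h. For AA against MS, leaving out single libraries gave 1 to 3 genes in ein2-5 and 1 to 7 in WT at 3 h, and 60 to 62 in ein2-5 and 63 to 64 in WT at 24 h. The 3 h count was 1 without ein2-5 AA replicate 1, and in WT it was 2 without AA replicate 2 and 1 without MS replicate 1; at an adjusted p under 0.01 the 3 h counts were 1 in ein2-5 and 1 in WT. The AA by genotype test gave 0 to 1 (1 without ein2-5 AA 24 h replicate 1), and 1 under upper-quartile scaling, no filter, only the libraries compared and DESeq2. The rule gave 24 genes with a 24 h limit of 1, 198 with 0.5 and 39 with a 3 h limit of 0.15; left-out libraries gave 60 to 74. Against untreated, a limit of 1 gave 19 genes above with AA and 8 below with MS; left-out libraries gave 34 to 37 and 11 to 14. The cause of these shifts was not tested, beyond the stricter limits and fewer samples themselves. No called result changed direction. Among results that were not called, several changed sign when 1 library was left out. Without ein2-5 AA 24 h replicate 1, the difference with AA at 24 h went from 0.42 to -0.10 for BHLH100. In the same fit it went from 0.41 to -0.28 for BHLH38, and from 0.23 to -0.02 for OPT3. ORG1 with MS at 24 h went from 0.19 to -0.02 without ein2-5 MS 24 h replicate 1. These are examples.

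With the replicate block the genotype counts were 17 untreated, 22 with AA and 19 with MS at 3 h, and 16 with AA and 15 with MS at 24 h. Same-numbered libraries shared only a number. With 3 libraries a group, small differences between low genes such as PAP1 and AT5G38910 are hard to see.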
